A study of Mus musculus with 4 samples.

Results

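The microRNAs (miRNAs) described here were those numbered from miR-673 to miR-719, any arm or letter counted and miR-679 left out. They made up 51 of the 710 mouse miRNAs on the chip. The rule for the choice used names alone and no measured value, but it was set with earlier results of these data known. Most of these miRNAs were first cloned from mouse embryo. Female C57BL/6JNarl mice, 6 to 8 weeks old, received 100 µl of acetone on the abdominal skin, either alone as the solvent control or carrying 10 µg/µl of shikonin, a naphthoquinone from the root of Lithospermum erythrorhizon. Skin was taken 24 hr later, and total RNA was hybridised to miRNA biochips, 2 arrays for acetone and 2 for shikonin. All 4 arrays thus shared the solvent, the strain and the time point, and untreated skin was not analysed here. Both arrays of a treatment are described as biological replicates, and the sources do not say how many mice stood behind each, so the spread behind each p-value is that of these 4 samples.

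A miRNA is a short RNA, cut from a hairpin precursor, that guides an Argonaute protein to messenger RNAs, mostly by pairing of its seed, bases 2 to 8 from the 5′ end, and thereby lowers translation and stability of the target. The 2 strands of a hairpin are called the 5p and 3p arms, and in older names the less abundant arm carries a star. On the chip used here, a miRNA bound to a complementary probe served as the primer that a polymerase extended with labelled nucleotides, so the brightness of a spot followed the amount of the miRNA bound. Each miRNA had 8 spots per array, and brightness is given in the scanner's own units.

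Mature sequences from RefSeq, annotated on the mouse assembly GRCm38.p6, are shown for members whose values carry the results, with the seed in capitals and the locus after them. The first set holds members that were brighter on both shikonin arrays. For miR-702 the chip's name marks no arm, RefSeq lists both arms, and the labels do not say which of them the probe matches, so both are shown.
miR-713: uGCACUGAaggcacacagc
miR-693-5p: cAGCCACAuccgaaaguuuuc
miR-702-5p: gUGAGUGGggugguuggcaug
miR-702-3p: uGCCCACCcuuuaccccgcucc
miR-673-3p: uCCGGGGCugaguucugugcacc
miR-713 lies at chr13:62760807-62760825 (+) within the span of the long noncoding RNA gene Platr25. miR-693-5p lies at chr17:46231551-46231571 (+) within Xpo5, which encodes the exportin that carries miRNA precursors out of the nucleus. The arms of miR-702 lie at chr5:136991442-136991462 (+) and chr5:136991520-136991541 (+) within Plod3, a collagen lysyl hydroxylase gene. miR-673-3p lies at chr12:109572044-109572066 (+) within Rtl1, in the imprinted Dlk1-Dio3 region. Gene spans were taken without regard to strand.

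The second set holds the member that was dimmer on both shikonin arrays with the lowest fold change, miR-708, again with both RefSeq arms, and members above background on all 4 arrays whose groups overlapped.
miR-708-5p: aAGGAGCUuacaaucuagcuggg
miR-708-3p: cAACUAGAcugugagcuucuag
miR-705: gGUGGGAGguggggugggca
miR-690: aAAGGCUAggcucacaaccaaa
miR-681: cAGCCUCGcuggcaggcagcu
The arms of miR-708 lie at chr7:96249450-96249472 (+) and chr7:96249496-96249517 (+) within Tenm4, a gene for a teneurin membrane protein. miR-705 lies at chr6:85336341-85336360 (-) within Rab11fip5, miR-690 at chr16:28599940-28599961 (-) within Fgf12, and miR-681 at chr12:69763923-69763943 (-) within Cdkl1. Of the 51 members, 30 matched a RefSeq mature sequence of the same name, 11 matched only entries with arm names, and 10 had no entry in the table, among them miR-709, miR-696, miR-715, miR-712 and miR-712*. The 30 sequences matched by name carried 30 different seeds, and none of these seeds occurred in another miRNA of the chip that matched RefSeq by name. Only 198 of the 710 miRNAs matched by name, so seeds shared with the rest of the chip were not looked for.

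Over the whole chip, 217 to 285 of the 710 miRNAs were above background on an array, where background was the median of 37 miRNAs of brain, liver, embryonic stem cells and testis plus 3 scaled median absolute deviations. Of the 5680 spots of an array, 239 to 398 were empty, and 20 to 24 of the 408 spots of the 51 members were. All 7 keratinocyte miRNAs on the chip, miR-203, miR-205 and the miR-200 family with miR-141 and miR-429, had lower means with shikonin, none past the limma test, with a summed normalised intensity of 11401 to 13121 on the acetone arrays against 3635 to 7318 on the shikonin arrays. All 4 striated muscle miRNAs and 5 of 6 fibroblast miRNAs had lower means too, with sums of 5442 to 10350 against 3299 to 4284 for muscle and 12607 to 16577 against 8399 to 10832 for fibroblasts. Of 6 leukocyte miRNAs, 5 had lower means, their sums ran from 4626 to 4674 against 3663 to 5255, and miR-142-3p and miR-155 were above background on no array. The 3 red cell miRNAs summed to 1278 to 1470 against 1271 to 1474, with miR-144 above background on no array, and the 2 endothelial ones to 2972 to 4443 against 1799 to 1804, with miR-126-5p above background on none. The part of these differences in the results on the members was not tested, and in pieces of whole skin fewer cells of a type and less of a miRNA per cell cannot be told apart.

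Few of the members were bright in skin. Of the 51, 10 (19.6%) were above background on all 4 arrays, 16 on 1 to 3 arrays and 25 (49.0%) on none. Among the other 659 miRNAs of the chip the shares were 25.9% on all 4 and 52.7% on none. Among the 204 miRNAs numbered under 200, let-7 included, 35.8% were above background on all 4 arrays, and among the 108 numbered 1000 and above 25.9% were. These shares are a description without a test. Only 2 of the 51 members (3.92%), miR-709 and miR-705, had a mean normalised log2 intensity above 10, against 11.7% of all 710 miRNAs. The share was 20.1% of the miRNAs numbered under 200 and 9.26% of those numbered 1000 and above. The median level of the members over the 4 arrays, 8.61 on the log2 scale, was the same to this precision as that of all 710.

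**Figure D1:**
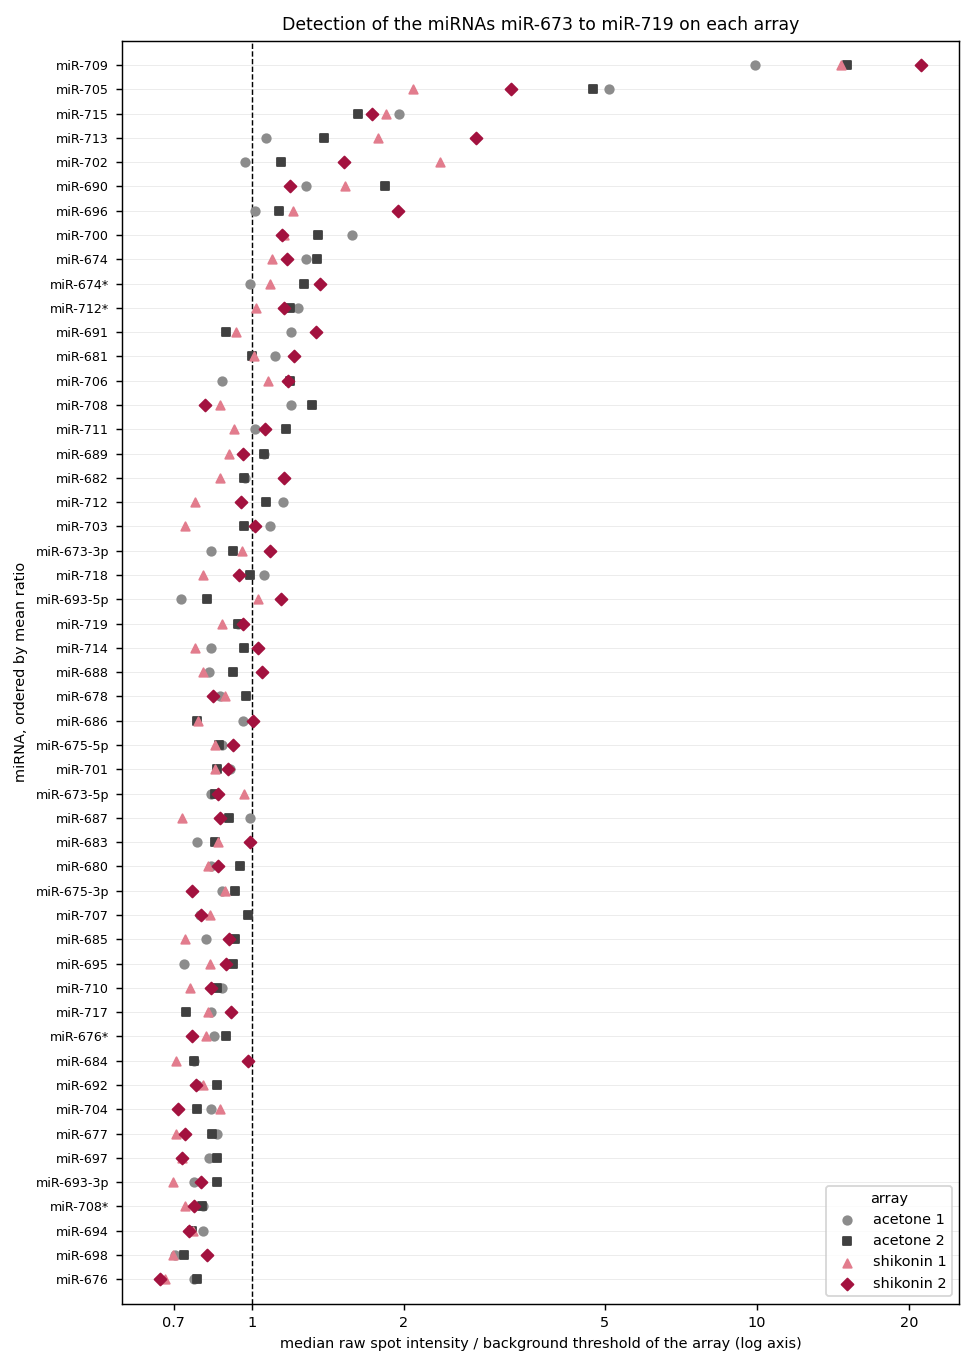
Median raw spot intensity of each member divided by the background threshold of the array, on a log axis, with 1 point per array and the dashed line at a ratio of 1. miR-709 and miR-705 stand far to the right of the line, and the 25 members above background on no array have all their points to the left of it.

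The number of members above background was 17 on each acetone array, 14 on shikonin array 1 and 22 on shikonin array 2. The 10 members above background throughout were miR-674, miR-681, miR-690, miR-696, miR-700, miR-705, miR-709, miR-712*, miR-713 and miR-715. A further 5 members, miR-673-3p, miR-682, miR-686, miR-688 and miR-714, passed on shikonin array 2 alone, which was 9.80% of the members against 3.38% of all miRNAs. That array also had the widest scatter between the spots of one miRNA, with a median SD of 0.39 on the log2 scale against 0.22 to 0.28 on the other arrays. miR-689, miR-708 and miR-712 passed on both acetone arrays and on neither shikonin array, which was 5.88% of the members against 4.08% of all miRNAs. miR-693-5p was the only member with the opposite pattern, 1.96% against 0.986%. miR-674*, miR-702 and miR-706 passed on acetone array 2 and both shikonin arrays. miR-711 passed on all but shikonin array 1, miR-691 and miR-703 on acetone array 1 and shikonin array 2, and miR-718 on acetone array 1 alone.

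No member passed the limma test at an adjusted p of 0.05, against 2 of all 710 miRNAs, or 0.282%, and the adjusted p-values of the members ran from 0.125 to 0.989. At an unadjusted p of 0.05, 6 members (11.8%) were higher with shikonin, beside 6.62% of all miRNAs. They were miR-709, miR-713, miR-702, miR-693-5p, miR-673-3p and miR-683. In the other direction 1 member, miR-708 (1.96% of the 51), was lower at that level, beside 11.0% of all miRNAs. In 13 members (25.5%) both shikonin values lay above both acetone values, beside 22.4% of all miRNAs, and in 9 (17.6%) both lay below, beside 26.8%. In the other 29 members the groups overlapped. With 2 arrays against 2, an exact two-sided permutation test of a single miRNA cannot give a p below 0.333.

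The median log2 fold change of the 51 members, shikonin minus acetone, was 0.02, with quartiles of -0.08 and 0.19. It was -0.01 over all 710 miRNAs and -0.12 over the 204 numbered under 200. Of the members, 28 had a fold change above 0 and 23 below 0. In 39 (76.5%) it lay within 0.25 of 0, against 69.7% of all miRNAs. The members above background on all 4 arrays ranged from -0.29 to 1.41 with a median of 0.09, those above on 1 to 3 arrays from -0.48 to 1.08 with a median of 0.11, and those above on no array from -0.19 to 0.24 with a median of -0.01. The zero of this scale depended on the scaling. Where each array was scaled to the 75th percentile of the miRNAs above background on all 4 arrays, the median of all 710 miRNAs was 0.61 and that of the members 0.65, and with this scaling 5 members, miR-693-5p, miR-696, miR-702, miR-709 and miR-713, passed at an adjusted p of 0.05 by limma, beside 97 of all 710 miRNAs. With a prior variance that follows intensity in place of a single one, limma called 4 members, miR-693-5p, miR-702, miR-708 and miR-713, beside 38 of all miRNAs.

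**Figure D2:**
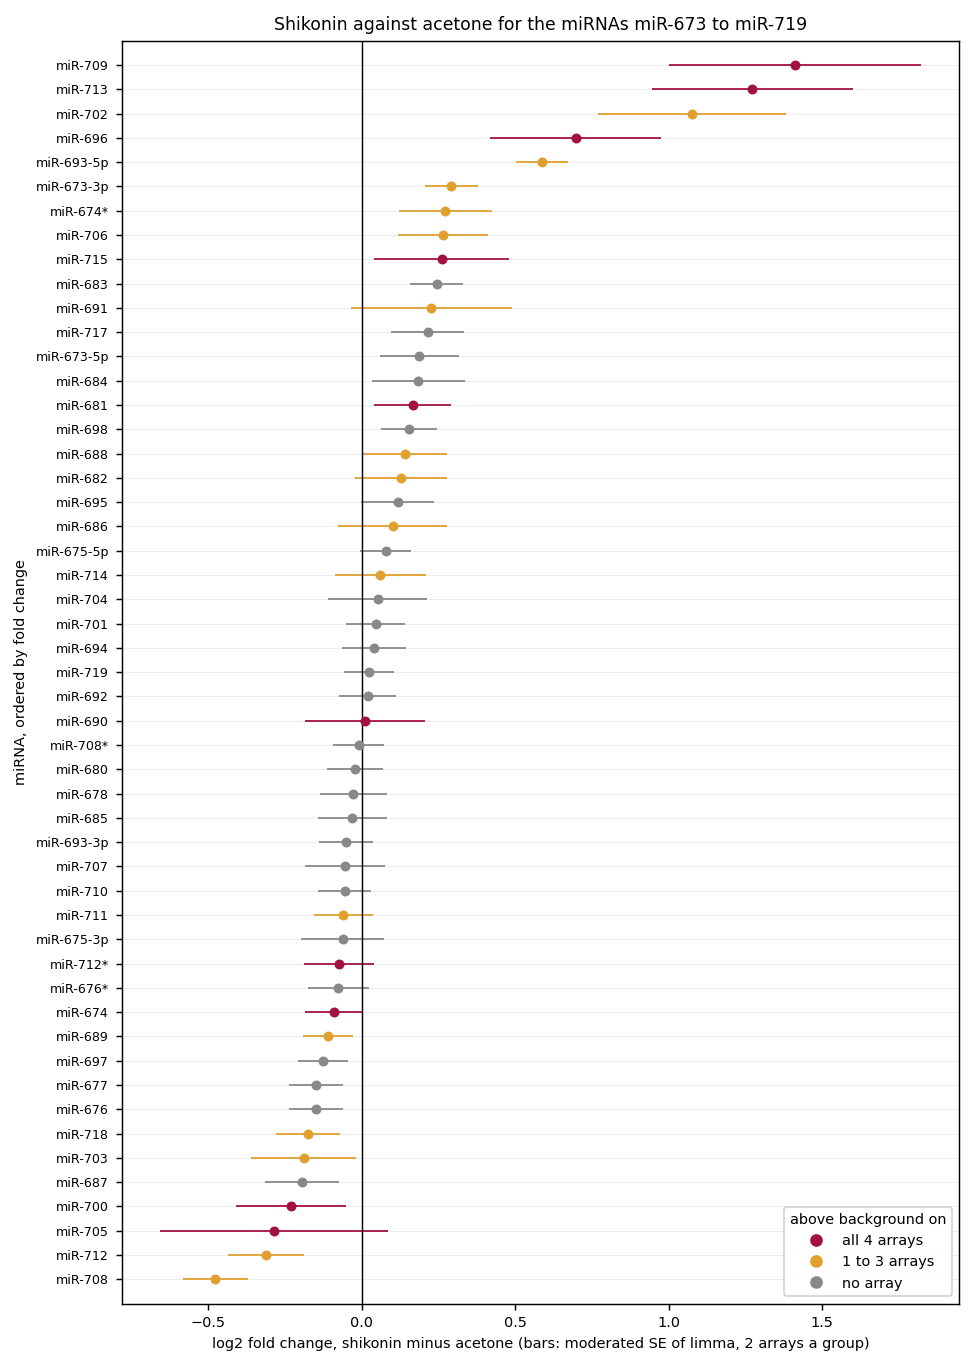
Log2 fold change of each member, shikonin minus acetone, with its standard error from limma, ordered by size. miR-709, miR-713 and miR-702 stand above 1, miR-708 lies lowest at -0.48, and most members lie near 0.

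miR-709 was the brightest member. In mouse cells it is known as a miRNA found in the nucleus, where it binds the primary transcript of miR-15a and miR-16-1. Its median spot brightness reached 3721 and 6482 with acetone against 6370 and 10671 with shikonin, and after quantile normalisation its log2 intensity was 11.56 and 12.27 against 12.89 and 13.77. Both normalised shikonin values lay above both acetone values, while the raw value of shikonin array 1 lay between those of the acetone arrays. In order of brightness it held places 29 and 17 of 710 with acetone and places 10 and 5 with shikonin. The log2 fold change was 1.41 with a standard error of 0.41, or 2.66-fold, and the limma adjusted p was 0.203. The spots of miR-709 spread widely within an array, from 5385 to 10899 on acetone array 2 and from 7930 to 22837 on shikonin array 2. Leaving out each array in turn gave log2 fold changes from 0.95, without shikonin array 2, to 1.82, without shikonin array 1. With each array scaled to the 75th percentile of its 710 miRNAs the value for miR-709 was 0.68, and without normalisation 0.75.

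miR-713 was dimmer, with raw medians of 400 and 600 on the acetone arrays against 772 and 1400 on the shikonin arrays. Normalised log2 intensities were 8.85 and 9.09 against 9.81 and 10.67, so the groups did not overlap. In the order of brightness it held places 219 and 166 with acetone and places 94 and 52 with shikonin. The log2 fold change was 1.27 with a standard error of 0.33, or 2.42-fold, at a limma adjusted p of 0.178. Spots ran from 240 to 608 and 504 to 736 with acetone, and from 688 to 968 and 960 to 1953 with shikonin, so on shikonin array 2 every spot was brighter than any acetone spot. With normexp background correction, which takes a modelled background from each spot, the difference was 3.30-fold. Without shikonin array 2 the log2 fold change was 0.89, and without shikonin array 1 it was 1.74.

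miR-702 had raw medians of 364 and 492 on the acetone arrays against 1024 and 768 on the shikonin arrays. On the log2 scale the normalised values were 8.74 and 8.88 against 10.30 and 9.48. The groups did not overlap, and the higher value was on shikonin array 1, unlike miR-709 and miR-713. Only 1 of the acetone arrays was above background. The fold change was 1.08 on the log2 scale with a standard error of 0.31, or 2.11-fold, with a limma adjusted p of 0.198 and a range over left-out arrays from 0.68 to 1.60.

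**Figure D3:**
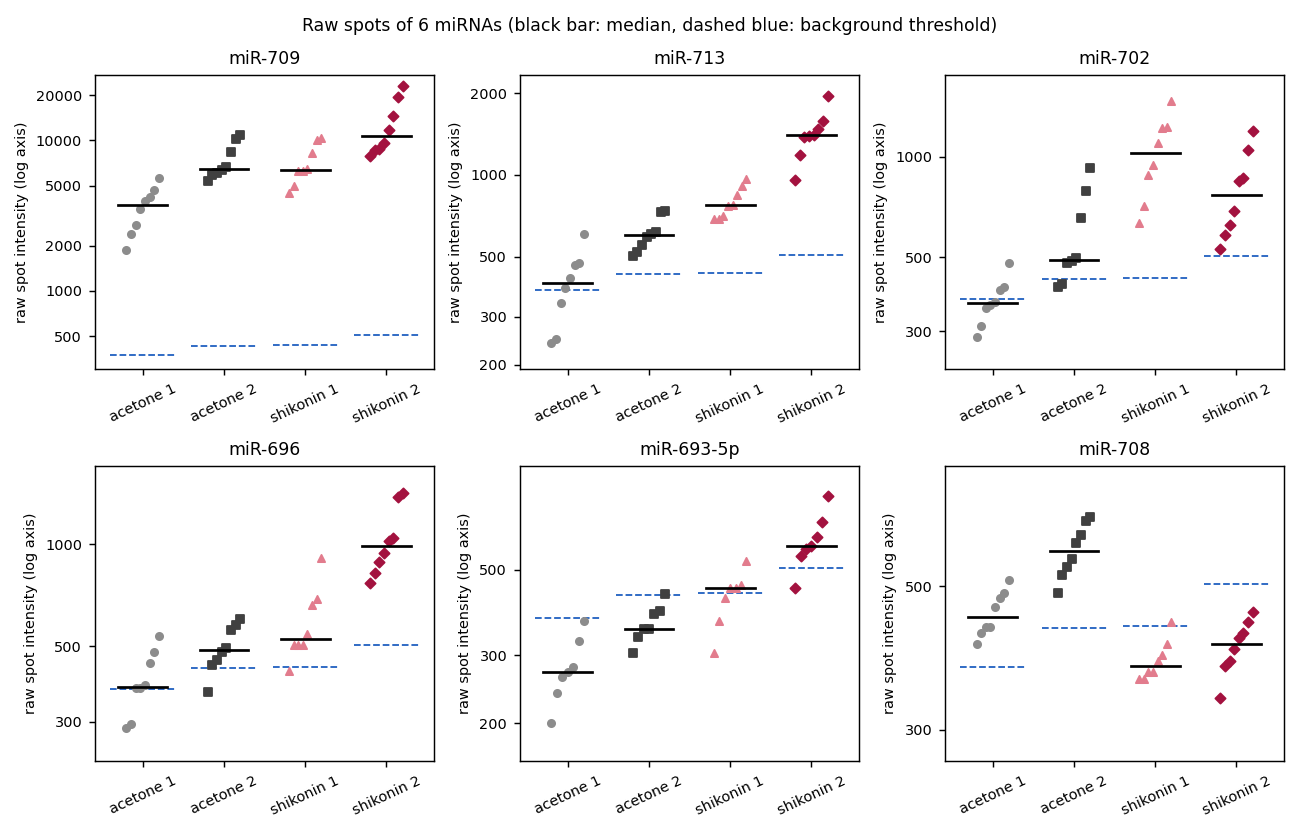
Raw brightness of the single spots of miR-709, miR-713, miR-702, miR-696, miR-693-5p and miR-708 on each array, on a log axis, with black bars at the medians and dashed lines at the background threshold of each array. The spots of miR-713 on shikonin array 2 all lie above its acetone spots, whereas the spots of miR-709 overlap between the groups.

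miR-693-5p had the smallest p of the members. It comes from the hairpin within Xpo5, and its raw medians were 272 and 352 with acetone against 448 and 576 with shikonin. Normalised values of 8.31 and 8.40 lay below those of 8.92 and 8.97, with little spread within either group. The fitted log2 fold change was 0.59 with a standard error of 0.09, the limma adjusted p was 0.125, and leaving out each array in turn gave 0.54 to 0.63. On shikonin array 1 the raw median of 448 was only just over the background threshold of 435, with spots from 304 to 528. Since neither acetone array was above background, the difference has only a lower bound, at least 1.15-fold higher with shikonin on the quantile normalised scale. Such a bound takes no account of sampling error. This bound, and those for other members below, set the mean of the brighter group against the lowest intensity that counted as above background on each array of the other group, or the miRNA's own value where that was higher. The other arm, miR-693-3p, was above background on no array and had normalised values of 8.39 and 8.48 against 8.34 and 8.43, a log2 fold change of -0.05 with a standard error of 0.09.

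miR-696, which targets the coactivator Pgc-1alpha in mouse muscle, was above background on all 4 arrays, with raw medians of 380 and 488 against 524 and 984. On acetone array 1 its median was only just over the background threshold of 375. Its normalised values were 8.79 and 8.87 with acetone and 9.15 and 9.90 with shikonin. The groups did not overlap, but the gap between the shikonin arrays was wider than the gap between the groups. The log2 fold change was 0.70 with a standard error of 0.28 and a limma adjusted p of 0.325, and it was 0.35 without shikonin array 2 and 1.10 without shikonin array 1.

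The smaller positive differences belonged to members close to background. miR-673-3p had normalised values of 8.50 and 8.58 against 8.80 and 8.87, a log2 fold change of 0.29 with a standard error of 0.09 and an adjusted p of 0.214 by limma. Neither acetone array and only 1 of the 2 shikonin arrays was above background, so no bound on the fold is given. Its partner arm miR-673-5p, at 8.50 and 8.46 against 8.81 and 8.52, was above background on no array. The groups of both arms did not overlap. miR-674* had 8.77 and 8.99 against 9.00 and 9.29, and miR-706, whose hairpin lies within the kinase gene Wnk1, had 8.58 and 8.92 against 8.99 and 9.04. Each of these had a log2 fold change of 0.27 with a standard error of 0.15 and was above background on 3 arrays. miR-683 had a log2 fold change of 0.24 with a standard error of 0.09 and was above background on no array.

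Among the members above background on every array, 6 had log2 fold changes from -0.23 to 0.26 with standard errors from 0.09 to 0.22. miR-715 had normalised values of 9.76 and 9.21 with acetone and 9.84 and 9.66 with shikonin, and acetone array 1 lay between the shikonin arrays. miR-681 had 8.92 and 8.71 against 8.89 and 9.08, with overlapping groups. Its raw medians of 432 on acetone array 2 and 440 on shikonin array 1 were only just over the thresholds of 431 and 435. miR-690 had 9.19 and 9.36 against 9.52 and 9.05, a log2 fold change of 0.01 with a standard error of 0.20, and its acetone values lay between the shikonin values. miR-674 had 9.19 and 9.04 against 9.02 and 9.03, and miR-700 had 9.49 and 9.05 against 9.09 and 8.99. In miR-674 both shikonin values were slightly below both acetone values, at a log2 fold change of -0.09 with a standard error of 0.09, and in miR-700 the groups overlapped.

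miR-705, which targets Hoxa10 in mouse bone marrow stromal cells, was the other bright member, with raw medians of 1909 and 2041 under acetone against 908 and 1644 under shikonin. Normalised values were 11.04 and 10.53 against 10.06 and 10.95, and the groups overlapped. The log2 fold change was -0.29 with a standard error of 0.37, at a limma adjusted p of 0.774. Its sign rested on shikonin array 1, where the spots ran from 440 to 1953: without that array the value was 0.16, and leaving out each of the others gave values down to -0.81. The sign also turned with the normalisation. With cyclic loess the value was 0.29, and 0.19 where 54 miRNAs of repeat-rich families (miR-669, miR-467, miR-466 and miR-297) were left out. With each array scaled to the 75th percentile of its 710 miRNAs it was -0.76 and without normalisation -0.69, and in both miR-705 was lower at an unadjusted p under 0.05 by limma.

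miR-708, from the hairpin within Tenm4, had the lowest fold change of the members. Raw medians were 448 and 568 with acetone against 376 and 408 with shikonin, and the normalised values were 9.03 and 9.02 against 8.65 and 8.45. Both acetone arrays were above background, neither shikonin array was, and the groups did not overlap. The fitted log2 fold change was -0.48 with a standard error of 0.11 and a limma adjusted p of 0.151, and it stayed between -0.59 and -0.40 when an array was left out. With the scaling to bright miRNAs the value was 0.10, which was -0.51 relative to the median of all miRNAs under that scaling. On the quantile normalised scale, the only one for which bounds were worked out, miR-708 was at least 1.16-fold higher with acetone. The starred arm, miR-708*, was above background on no array, with 8.45 and 8.37 against 8.41 and 8.39.

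miR-712 comes from a spacer of the ribosomal RNA precursor and in mice is induced by disturbed blood flow in endothelium. Its normalised values were 8.98 and 8.79 with acetone against 8.48 and 8.67 with shikonin, with a log2 fold change of -0.31, a standard error of 0.12 and a limma adjusted p of 0.324. It too was above background on both acetone arrays and on neither shikonin array. On the quantile normalised scale this gave a bound of at least 1.05-fold higher with acetone. Raw medians were 432 and 460 against 336 and 480, so before normalisation shikonin array 2 was the brightest. With the scaling to bright miRNAs the log2 fold change was 0.32, which was -0.29 relative to the median of all miRNAs under that scaling. The starred arm miR-712* was above background on all 4 arrays, with 9.13 and 8.92 against 8.90 and 9.00, so the groups of that arm overlapped. The difference between the arms was not tested.

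The arms of the other hairpins were dim. miR-675, which is cut from the imprinted noncoding RNA H19 and restrains growth of the mouse placenta, was above background on no array in either arm. miR-675-5p had 8.58 and 8.50 against 8.61 and 8.62, and miR-675-3p had 8.58 and 8.60 against 8.68 and 8.37. miR-676, from the X-linked gene Eda, whose product ectodysplasin directs the growth of hair follicles and other skin appendages, had 8.39 and 8.34 against 8.27 and 8.16, and miR-676* had 8.52 and 8.55 against 8.55 and 8.37. Neither arm was above background on any array. miR-687, miR-703 and miR-718 completed the low end, with log2 fold changes of -0.19, -0.19 and -0.17 and standard errors of 0.12, 0.17 and 0.10. Normalised values were 8.77 and 8.56 against 8.39 and 8.54 for miR-687. They were 8.90 and 8.66 against 8.41 and 8.77 for miR-703 and 8.84 and 8.69 against 8.52 and 8.66 for miR-718. The groups overlapped in miR-703 alone of the 3.

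The 24 members not described singly so far, miR-683 counted among them, had normalised log2 intensities from 8.22 to 9.27 and log2 fold changes from -0.15 to 0.24, with limma adjusted p-values from 0.277 to 0.950. Of them, 15 had fold changes above 0 and 9 below 0, and 17 were above background on no array. They include miR-711, which lies within the gene of the anchoring fibril collagen Col7a1 and was above background on both acetone arrays and on shikonin array 2, with 8.79 and 8.92 against 8.74 and 8.85.

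**Figure D4:**
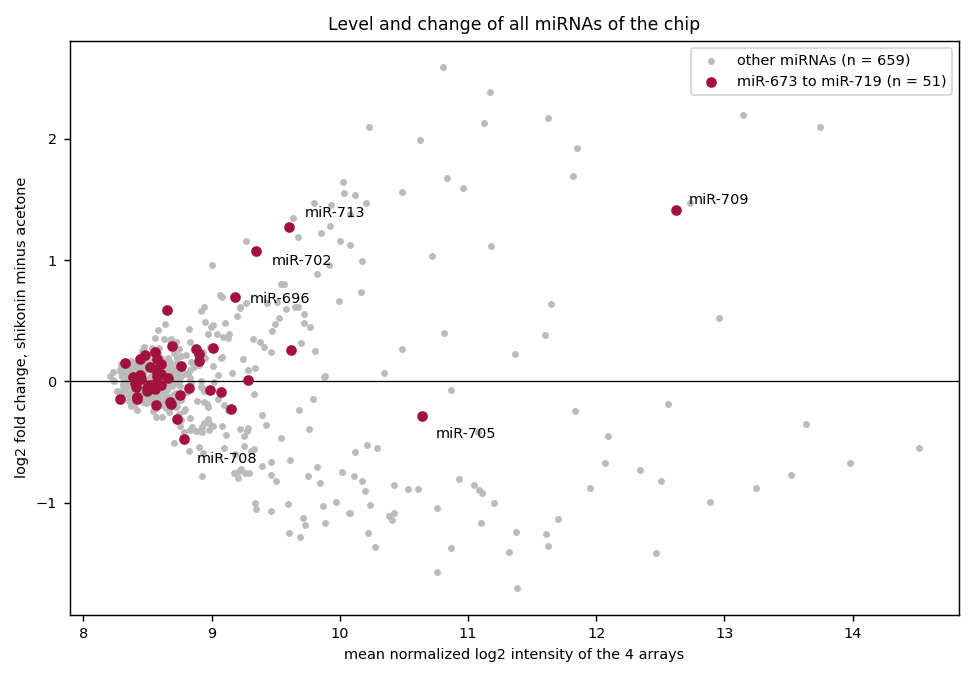
Mean normalised log2 intensity over the 4 arrays against the log2 fold change, shikonin minus acetone, for the 51 members and the other 659 miRNAs of the chip. Most members lie at the dim end near 0, and the bright miRNAs below -1 are not members.

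The deposited value table, a normalised log2 table of the same arrays, ordered these members in part otherwise. There miR-709 stood at 11.53 and 12.61 with acetone and at 12.57 and 13.43 with shikonin, so its groups overlapped. miR-713 stood at 6.20 and 7.98 against 8.43 and 10.06, miR-702 at 5.89 and 7.16 against 11.16 and 8.62, and miR-693-5p at 2.64 and 4.25 against 7.28 and 7.56. In these 3 both shikonin values again lay above both acetone values. miR-708 stood at 7.44 and 7.78 against 7.92 and 4.61, with overlapping groups. No member passed limma's test at an adjusted p of 0.05 on this table, the smallest adjusted p of a named member there being 0.981.

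Across the 51 members, the arrays of a group correlated at a Pearson's r of 0.93 for acetone and 0.94 for shikonin, and arrays of different groups at 0.82 to 0.91. Over all 710 miRNAs the between-group values were 0.77 to 0.90. These correlations are across miRNAs of one array pair, which are not independent replicates. Only 2 of the 51 members had a mean log2 intensity above 10, and the correlation without these bright members was not computed.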

How the data were processed

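The deposited spot table holds 1 raw intensity per spot for the 4 arrays, in scanner units; per the labels and methods it comes from Geniom biochips labelled by primer extension, and no background columns come with it. The deposited value table holds log2 values of the same arrays, normalised by the authors. Their methods name quantile normalisation, but the 4 columns do not share one distribution, and the background step and centring are not given in the sources used here, so this table was used as an alternative only. A few empty spots were left out, the median of up to 8 spots per miRNA was taken (at least 5 spots for every member), medians were quantile normalised between arrays, set to at least 1 and put on the log2 scale. limma 3.58.1 (R 4.3.3) was fitted to all 710 miRNAs, without filter or pairing, with Benjamini-Hochberg adjustment over all of them. A check on simulated data with known changes required only that the median fitted fold change came close to the one put in. It set no condition on the error rate of the calls. The number of arrays and spots limits the precision.

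A miRNA was above background where its raw median exceeded the median of the background list by over 3 scaled median absolute deviations. Members were named singly if they were miR-709 or miR-713, were above background on all 4 arrays, were 1 of both arms on the chip, were among the 8 highest or 8 lowest fold changes or the 5 smallest p-values, which gave 27; miR-683 and miR-711 were named after their values were seen. The members, lists and tests were chosen with earlier results of these data known. Alternatives were cyclic loess, scaling by a percentile, no normalisation, leaving out repeat-rich families, normexp (offset 50), the mean of spots, an intensity trend in the prior, a filter on dim miRNAs, the value table, blocks and leaving out each array. Symbols, sequences and loci came from RefSeq tables, and no coordinate of the deposited files was used. Chip batches are not given in the sources used here.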

Additional observations from a re-analysis of the deposited data

How the results depend on the processing

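With 2 arrays per group and most members near background, small differences such as those of miR-673-3p and miR-683 rest on dim spots. The count of members past a limma adjusted p of 0.05 was 5 with scaling to bright miRNAs and 2 without normalisation (miR-702 and miR-713). It was 4 with an intensity trend in limma's prior (miR-693-5p, miR-702, miR-708 and miR-713). Of all 710 miRNAs, 97, 83 and 38 passed in these fits, in the same order. The other alternatives that kept 2 arrays per group called 0 members. At an unadjusted p under 0.05, the 6 higher members became 23 with scaling to bright miRNAs and 2 with the value table, and 2 to 7 when an array was left out, 2 both without acetone array 1 and without acetone array 2. Of all 710 miRNAs, 255 were higher with scaling to bright miRNAs and 17 with the value table, against 47 in the fit reported. The 1 lower member became 2 with cyclic loess, with the 75th percentile over all miRNAs, with the intensity trend and with crossed pairs. All miRNAs lower in these fits numbered 55, 87, 69 and 92, against 78 in the fit reported. The count of lower members became 0 in some of the alternatives that kept 2 arrays per group. These were the scaling to bright miRNAs, the filter on dim miRNAs and the value table. All miRNAs lower there numbered 44 of 710, 61 of 276 tested and 6 of 710. The 1 lower member was miR-708 in the fit reported, but miR-700 without acetone array 2 and miR-705 without normalisation. The members' median log2 fold change of 0.023 was 0.11 with the 75th percentile over all miRNAs, 0.65 with bright miRNAs, 0.18 without normalisation (all miRNAs 0.14), -0.023 with the mean of spots, 0.088 with the filter (20 members tested) and 0.072 with the value table. With 5 median absolute deviations, 4 members were above background on all 4 arrays in place of 10. The count was 13 with 2 median absolute deviations and 7 with the mean of spots. Counts over all miRNAs at these settings were not taken. miR-708 reversed only with scaling to bright miRNAs, to 0.10. For members whose unadjusted p was 0.05 or more, a change of sign was read as a shift, since they carried no call. The cause of these shifts was not tested.

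The replicate numbers were not taken to pair the arrays, as deviations of the 2 groups correlated at -0.28 over 710 miRNAs and no label gives them a meaning. A fit with the replicate block called 0 members and gave them a median of 0.02. At the unadjusted level 4 members were higher and 1 lower, beside 37 and 79 of all 710 miRNAs. Crossed pairs, chosen after seeing the data, called 0 members and 35 miRNAs in all.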

Other observations

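Base composition was set beside detection for the 30 members whose sequence matched RefSeq by name, and it followed no order. The 4 above background on all 4 arrays, miR-681, miR-690, miR-705 and miR-713, had 45.5% to 75% G and C with a median of 64.7%, and the 16 above background on none had 36.4% to 66.7% with a median of 53.5%. Medians were 52.4% for the 5 members above background on 1 array, 40.9% for the 3 on 2 arrays and 50% for the 2 on 3 arrays. The ranges of the 4 and the 16 overlapped, and no test was made. miR-705, the brightest of the 4, was 70.0% G.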
